A study of Mus musculus with 12 samples.

Results

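The 9 genes described here are markers of the 2-cell-like state of mouse embryonic stem cells: Zscan4c, Zscan4d, Zscan4f, Usp17la, Usp17lc, Gm5662, Tcstv1, Tcstv3 and Zfp352. They were taken by name, with earlier results of these data known, so their counts beside all-gene shares are a description, not independent support. All 9 were found among the 32285 genes of the count table, each on 1 row. The 3 Zscan4 copies and the 2 Usp17l copies share sequence, so each family was also taken as a sum of its member copies. Transcripts were counted by bulk RNA sequencing in IB10 embryonic stem cells, a line derived from 129/Ola mice, in 12 libraries of 4 genotypes. The genotypes were a knockout (KO) of the G-quadruplex helicase DHX36, a KO of the helicase FANCJ (gene symbol Brip1), a DHX36/FANCJ double KO and wild type (WT), with 3 libraries each. All were untreated and were grown on gelatin in conditioned medium with serum and leukaemia inhibitory factor. The labels give neither the number of clones behind a KO line nor the origin of the 3 libraries of a genotype in separate cultures. The spread behind each p-value is that between libraries and may be technical.

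The 2-cell-like state is a rare and transient condition in cultures of mouse embryonic stem cells, in which cells switch on transcripts that the embryo makes when its own genome is first activated, at the 2-cell stage. The transcription factor DUX, itself regulated by DPPA2 and DPPA4, activates many of these genes, and chromatin repressors such as TRIM28 and KDM1A keep them off in most cells. Zscan4 genes encode SCAN-domain zinc finger proteins that act in telomere maintenance and genome stability, and are the classical markers of the state. Usp17l genes encode deubiquitinases, Gm5662 is a predicted gene related to the translation initiation factor eIF1A, Tcstv1 and Tcstv3 belong to a 2-cell-stage variable group, and Zfp352 is a zinc finger gene of the 2-cell embryo.

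Most of these genes lie in clusters of similar copies, shown here by position and by the sequence around their starts, because several of the copies are hard to tell apart in the count table. In the GENCODE M21 annotation of GRCm38, in which all 9 are protein coding, Zscan4c (chr7:11005745-11010547, plus strand), Zscan4d (chr7:11161374-11166159, minus strand) and Zscan4f (chr7:11397915-11402318, plus strand) lie in 1 cluster on chromosome 7. Usp17lc (chr7:103415072-103419880, plus strand) and Usp17la (chr7:104857009-104862667, plus strand) lie farther along the same chromosome. Gm5662 lies at chr12:88270640-88274500 on the minus strand, Tcstv1 at chr13:119893388-119894785 on the minus strand, Tcstv3 at chr13:120316878-120318178 on the plus strand and Zfp352 at chr4:90218820-90225702 on the plus strand.

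RefSeq promoter windows, from 250 bases before to 50 bases after the start on build GRCm38.p6, were found for 6 of the 9 genes. The windows of 5 are printed 5′ to 3′ on the gene's strand, at chr7:11166099-11166398 for Zscan4d, chr7:11005495-11005794 for Zscan4c, chr7:103416446-103416745 for Usp17lc, chr7:104856766-104857065 for Usp17la and chr4:90218570-90218869 for Zfp352. Capitals mark TATAAAA in Zscan4d, Zscan4c and Usp17lc, GATAGAATC in both Zscan4 copies, and a repeated GACAACACACC in Zfp352.
Zscan4d: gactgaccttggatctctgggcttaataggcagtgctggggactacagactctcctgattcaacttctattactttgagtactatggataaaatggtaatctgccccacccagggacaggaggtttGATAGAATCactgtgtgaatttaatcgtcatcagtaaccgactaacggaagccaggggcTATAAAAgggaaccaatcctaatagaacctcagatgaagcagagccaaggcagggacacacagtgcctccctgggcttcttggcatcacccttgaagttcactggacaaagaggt
Zscan4c: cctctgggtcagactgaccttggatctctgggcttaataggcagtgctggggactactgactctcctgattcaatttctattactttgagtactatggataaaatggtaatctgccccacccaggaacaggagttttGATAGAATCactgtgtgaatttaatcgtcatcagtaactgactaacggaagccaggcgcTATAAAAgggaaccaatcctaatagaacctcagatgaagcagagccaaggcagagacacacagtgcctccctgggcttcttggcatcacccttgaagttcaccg
Usp17lc: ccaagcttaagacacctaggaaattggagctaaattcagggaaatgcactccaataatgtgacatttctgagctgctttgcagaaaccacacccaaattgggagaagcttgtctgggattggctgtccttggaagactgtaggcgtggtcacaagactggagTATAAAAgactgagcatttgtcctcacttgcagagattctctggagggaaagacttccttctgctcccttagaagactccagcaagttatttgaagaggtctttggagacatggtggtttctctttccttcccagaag
Usp17la: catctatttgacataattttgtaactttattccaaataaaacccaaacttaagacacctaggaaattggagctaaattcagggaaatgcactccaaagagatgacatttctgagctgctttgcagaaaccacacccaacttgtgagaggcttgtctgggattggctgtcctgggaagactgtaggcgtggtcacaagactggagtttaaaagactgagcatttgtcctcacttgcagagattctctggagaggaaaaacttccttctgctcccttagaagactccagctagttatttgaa
Zfp352: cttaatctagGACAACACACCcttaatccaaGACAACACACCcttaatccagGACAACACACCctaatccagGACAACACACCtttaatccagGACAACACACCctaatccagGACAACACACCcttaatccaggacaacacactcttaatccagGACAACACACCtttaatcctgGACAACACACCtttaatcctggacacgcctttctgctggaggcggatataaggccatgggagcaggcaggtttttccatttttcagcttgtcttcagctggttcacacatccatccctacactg

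The Zscan4c and Zscan4d windows were 97.2% identical over 289 aligned bases, and those of Usp17lc and Usp17la 95.3% over 257. TATAAAA, searched on both strands, was present in the windows of Zscan4c, Zscan4d, Zscan4f and Usp17lc, and in 5.48% of all 32851 windows of the same length. Of the Usp17l pair, only the printed Usp17lc window holds these letters. GATTNNATC, a relaxed core of the site of DUX proteins, was found on either strand in 1.58% of all windows and in those of Zscan4c, Zscan4d and Zscan4f, where the match reads GATAGAATC because it lies on the strand opposite to the gene. GATTNAATC, the stricter core, whose matches are all matches of GATTNNATC too, was in none of the 6 windows and in 0.268% of all windows. GACAACACACC, the most frequent word of its length in the Zfp352 window and chosen from that sequence, occurs there 8 times and was in 0.00913% of all windows. A G-quadruplex motif, 4 runs of at least 3 G with loops of 1 to 7 bases, was in none of the 6 windows and in 18.6% of all windows. On the sense strand of the longest transcripts it was in none of the 9 genes and in 9.81% of 55341 genes. These matches describe letters in a reference from another strain, not binding.

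The counts came from a protocol like CEL-Seq2, which tags the 3′ ends of polyadenylated transcripts, so the last bases of a transcript decide which copy a read can be given to. Over the last 500 bases, 39.2% of 60-base windows of Zscan4c and 55.3% of those of Zscan4d occurred in no other gene, and none of those of Zscan4f did. The ends of Zscan4c and Zscan4d were 97.8% identical over 494 aligned bases. For Usp17lc and Usp17la the unique shares were 95.9% and 92.7%, for Tcstv1 and Tcstv3 87.3% and 92.5%, and for Zfp352 100%. Gm5662 was unique in 28.8%, and shared the rest with the related genes BB287469, Gm2016 and Gm4027. The values of single Zscan4 copies and of Gm5662 are therefore less certain than those of the family sums.

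Totals ran from 4284785 to 14721931 counts per library. The 3 double KO libraries and the 3 DHX36 KO libraries (6223087 to 10919405) were all deeper than the 3 of WT (at most 5792862). Dhx36 averaged 10.5 ± 1.45 CPM (counts divided by the normalised library size and scaled alike in all libraries) in the DHX36 KO, 55.6 ± 3.57 in the FANCJ KO, 13.9 ± 1.54 in the double KO and 54.15 ± 3.79 in WT (SD, n = 3 each). Brip1 averaged 6.93 ± 0.486 CPM in the DHX36 KO, 0.338 ± 0.253 in the FANCJ KO, 0.414 ± 0.295 in the double KO and 6.87 ± 0.154 in WT. Each targeted gene was thus low in the libraries labelled as lacking it, although where the deletions lie relative to the 3′ tags is not given in the sources used here. All 10 embryonic stem cell markers, among them Pou5f1, Sox2 and Nanog, passed the expression filter, and their summed level was 5738 to 5862 CPM in the DHX36 KO, 4487 to 4702 in the FANCJ KO, 6642 to 6914 in the double KO and 4948 to 5085 in WT. Of these 10 markers, 4 rose in the DHX36 KO against WT, none in the FANCJ KO and 9 in the double KO, and none fell. The shares of all genes tested that rose were 12.8%, 1.45% and 16.6%, and those that fell were 11.6%, 0.619% and 17.3%.

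The 2-cell-like genes were highest together in the DHX36 KO. The 9 genes together held 168.4, 162.9 and 164.1 CPM in the 3 DHX36 KO libraries, 90.4, 99.1 and 85.4 CPM in the FANCJ KO, 100.2, 95.4 and 89.9 CPM in the double KO and 54.25, 51.8 and 59.96 CPM in WT. Every KO library lay above every WT library, and every DHX36 KO library above every library of the other 3 genotypes. The mitochondrial share of counts also separated every KO library from every WT library, at 11.005 to 12.3% in the DHX36 KO, 11.2 to 11.5% in the FANCJ KO, 11.9 to 13.2% in the double KO and 10.01 to 10.6% in WT, and its part in the result was not tested. The DHX36 and FANCJ KOs overlapped in this share. In bulk samples, more cells in the state and more RNA per such cell cannot be told apart. A filter on low counts left 7 of the 9 genes for testing, without Zscan4f and Tcstv1. Of these, 5 rose in the DHX36 KO against WT, 3 in the FANCJ KO and 4 in the double KO, by edgeR's quasi-likelihood test with a Benjamini-Hochberg adjusted p under 0.05, and none fell. Over all 12765 genes tested, 12.8% rose and 11.6% fell in the DHX36 KO, 1.45% rose and 0.619% fell in the FANCJ KO, and 16.6% rose and 17.3% fell in the double KO. The median log2 fold change of the 7 genes was 1.60 in the DHX36 KO, 0.86 in the FANCJ KO and 0.65 in the double KO, with all-gene medians within 0.01 of 0. These 3 comparisons share the WT libraries.

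**Figure D1:**
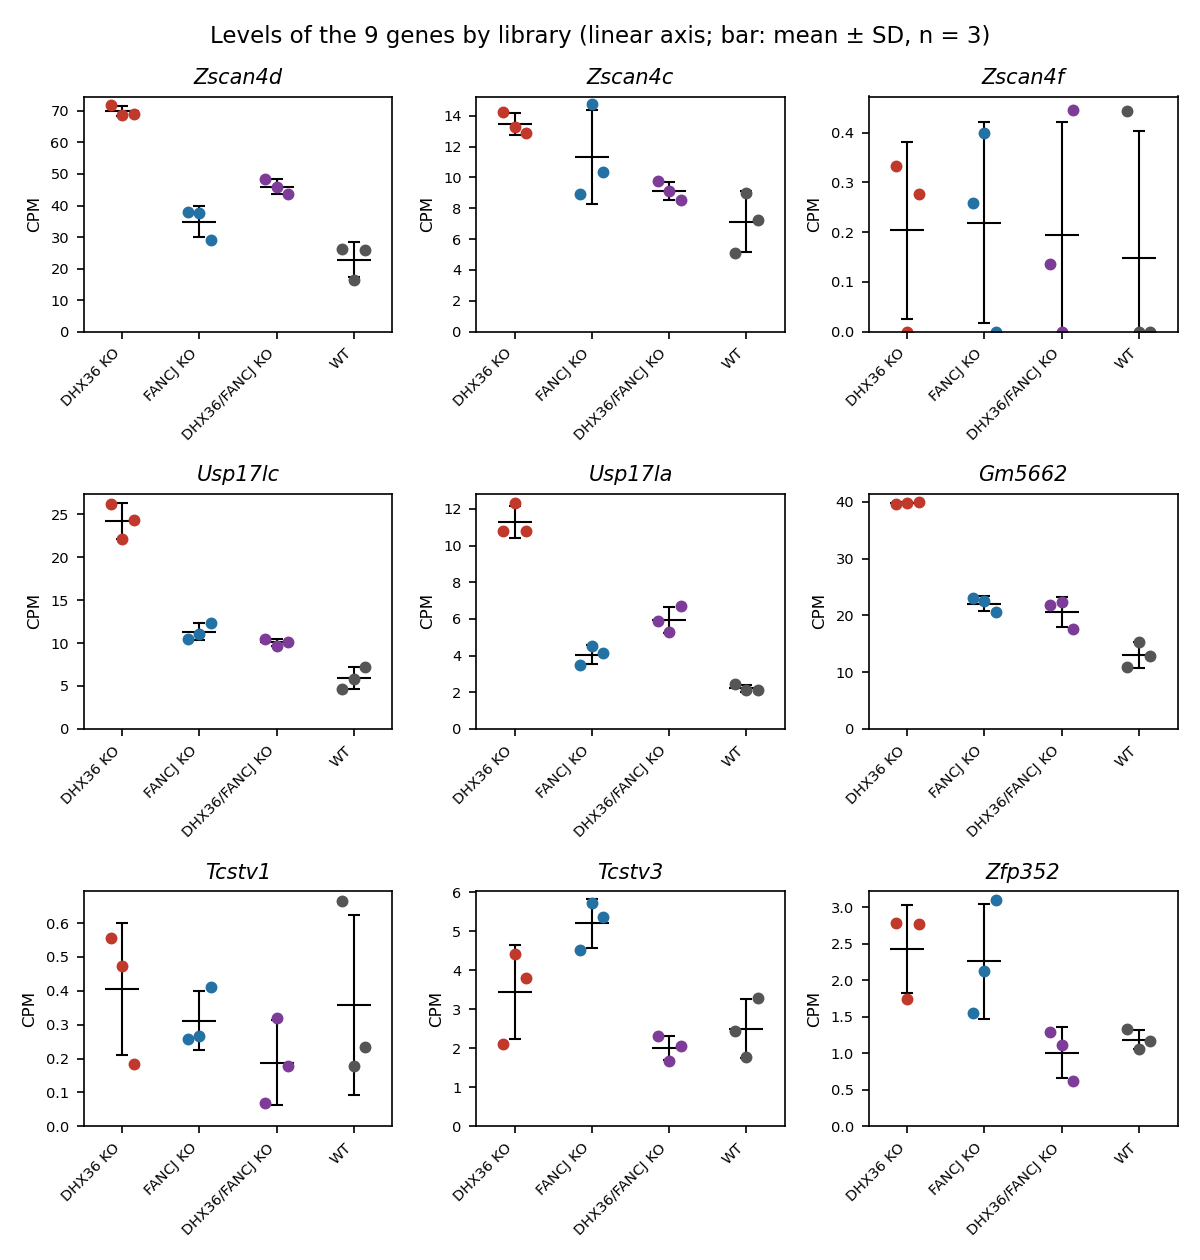
Levels of each of the 9 genes in CPM (linear axes that start at 0, scaled per gene) in the DHX36 KO, FANCJ KO, DHX36/FANCJ double KO and WT; points are single libraries and bars the mean ± SD of 3. Zscan4d, Usp17lc, Usp17la and Gm5662 are highest in all 3 DHX36 KO libraries, while Zscan4f and Tcstv1 stay under 1 CPM in every library.

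Zscan4d held most of the counts of the Zscan4 member copies. Its level was 71.8, 68.8 and 69.2 CPM in the DHX36 KO, 37.9, 37.8 and 29.1 in the FANCJ KO, 48.5, 45.9 and 43.6 in the double KO and 26.35, 16.4 and 25.8 in WT. The 4 genotypes did not overlap and were ordered DHX36 KO, double KO, FANCJ KO, WT. Against WT, its log2 fold change was 1.63 in the DHX36 KO (SE 0.14, adjusted p = 2.94e-08), 0.64 in the FANCJ KO (SE 0.15, adjusted p = 0.0237) and 1.03 in the double KO (SE 0.14, adjusted p = 6.81e-06). The call in the FANCJ KO was lost without FANCJ KO library 1 or 2 or WT library 2 (adjusted p = 0.108, 0.0855 and 0.140), with that genotype and WT fitted alone (0.0758) and at equal depth (0.0507).

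Zscan4c was measured at 14.2, 13.3 and 12.9 CPM in the DHX36 KO, 8.89, 14.8 and 10.3 in the FANCJ KO, 9.74, 9.09 and 8.55 in the double KO and 5.09, 9.02 and 7.26 in WT. Only the DHX36 KO stood clear of WT, with a log2 fold change of 0.89 (SE 0.21, adjusted p = 0.00308). The values of 0.66 in the FANCJ KO (adjusted p = 0.136) and 0.34 in the double KO (adjusted p = 0.224) did not pass. Zscan4f had 3, 0 and 3 counts in the DHX36 KO, 2, 3 and 0 in the FANCJ KO, 2, 0 and 5 in the double KO and 2, 0 and 0 in WT, too few for a comparison.

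The sum over the 3 Zscan4 member copies does not depend on how reads were split among them, although reads shared with the other Zscan4 rows still bear on it. It was 86.4, 82.1 and 82.3 CPM in the DHX36 KO, 47.05, 52.9 and 39.4 in the FANCJ KO, 58.4, 54.95 and 52.6 in the double KO and 31.9, 25.5 and 33.0 in WT. The DHX36 KO was highest in all 3 libraries and WT lowest, with the FANCJ and double KOs overlapping in between. The sum rose against WT by a log2 fold change of 1.48 in the DHX36 KO (SE 0.12, adjusted p = 9.78e-09), 0.64 in the FANCJ KO (SE 0.12, adjusted p = 0.00633) and 0.89 in the double KO (SE 0.12, adjusted p = 4.54e-06). In the FANCJ KO it missed the threshold without WT library 2 (0.54, adjusted p = 0.0517). Summed over all 8 rows named Zscan4, the rise was 1.24 in the DHX36 KO (adjusted p = 6.23e-09) and 0.67 in the FANCJ KO (adjusted p = 0.000448). It was 0.64 in the double KO (adjusted p = 2.16e-05), so the double KO was not above the FANCJ KO in that sum.

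The table holds 8 rows named Zscan4, and the other 5 did not all follow Zscan4d. Zscan4-ps1, which the annotation calls protein coding in spite of its name, had log2 fold changes against WT of 0.04 in the DHX36 KO (adjusted p = 0.916), 0.92 in the FANCJ KO (adjusted p = 0.0211) and −0.34 in the double KO (adjusted p = 0.238). It passed in the FANCJ KO only, and was lower than there in the DHX36 KO (−0.88, adjusted p = 0.00106) and in the double KO (−1.25, adjusted p = 1.26e-05). Zscan4-ps2 rose in the DHX36 KO (1.21, adjusted p = 7.44e-05) and did not pass in the FANCJ KO (0.48, adjusted p = 0.268) or the double KO (0.47, adjusted p = 0.0720). Zscan4-ps3 passed in none of the 3. As a share of the counts of all 8 rows, Zscan4d took 60.8% to 63.2% in the DHX36 KO, 43.25% to 49.8% in the FANCJ KO, 61.6% to 62.0% in the double KO and 35.2% to 56.9% in WT. Zscan4-ps1 took 4.68% to 6.42% in the DHX36 KO, 15.6% to 16.4% in the FANCJ KO, 6.04% to 7.61% in the double KO and 11.6% to 16.7% in WT. The makeup of the Zscan4 signal thus differed between the libraries without DHX36 and the others, with no overlap for either row, as a description without a test. WT library 2 stood apart, with the lowest share of Zscan4d and the highest shares of Zscan4-ps1, Zscan4-ps2 and Zscan4c among WT libraries.

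**Figure D2:**
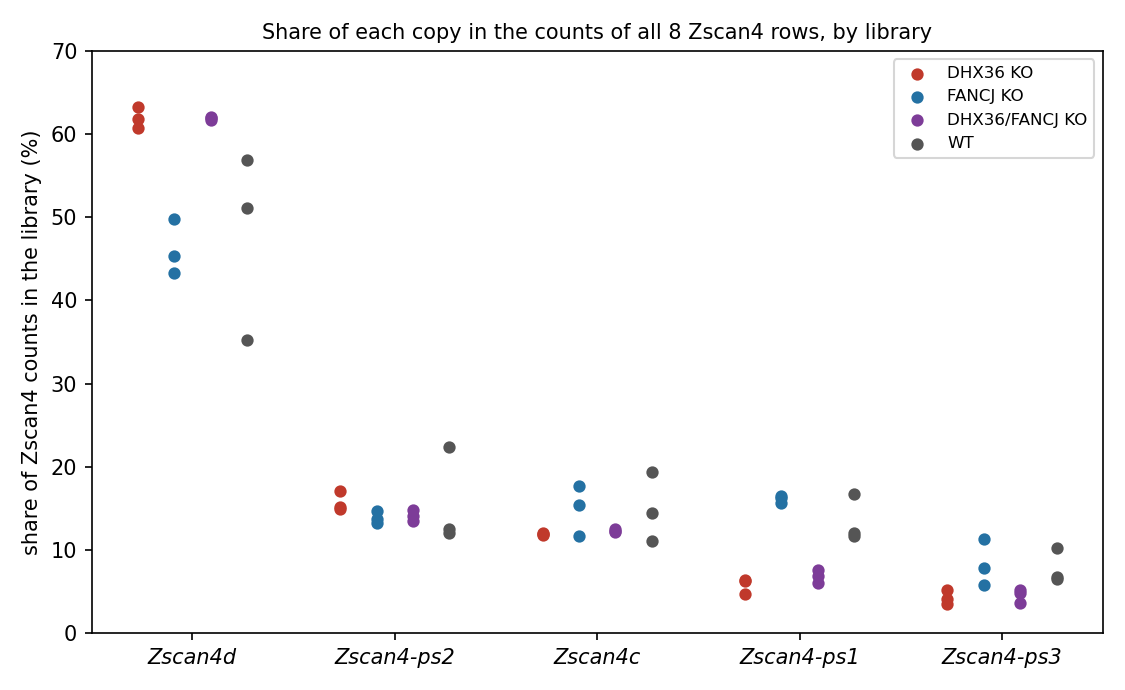
Share of each copy, in percent of the counts of all 8 Zscan4 rows of a library, with 1 point per library, for the 5 rows with most counts. Zscan4d lies at 60.8% or above in every library without DHX36 and at 56.9% or below in every other library, and Zscan4-ps1 shows the opposite order.

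The Usp17l deubiquitinase genes had the largest fold changes in the DHX36 KO. Usp17lc was measured at 26.2, 22.1 and 24.3 CPM in the DHX36 KO, 10.4 to 12.4 in the FANCJ KO, 10.5, 9.65 and 10.1 in the double KO and 4.65, 5.83 and 7.26 in WT. Usp17la was measured at 10.8, 12.3 and 10.8 CPM in the DHX36 KO, 3.48, 4.52 and 4.13 in the FANCJ KO, 5.88, 5.26 and 6.68 in the double KO and 2.44, 2.12 and 2.11 in WT. For both, every library of each KO genotype lay above every WT library. Usp17lc changed against WT by a log2 fold change of 2.04 in the DHX36 KO (SE 0.17, adjusted p = 1.63e-08), 0.92 in the FANCJ KO (SE 0.19, adjusted p = 0.00999) and 0.77 in the double KO (SE 0.18, adjusted p = 0.00180). Usp17la changed by 2.34 in the DHX36 KO (SE 0.23, adjusted p = 1.85e-07) and 1.41 in the double KO (SE 0.24, adjusted p = 9.96e-05), and its 0.86 in the FANCJ KO did not pass (SE 0.27, adjusted p = 0.116). The call of Usp17lc in the FANCJ KO was lost without WT library 1 (adjusted p = 0.0586).

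Summed, the pair gave 37.0, 34.4 and 35.1 CPM in the DHX36 KO, 13.9, 15.6 and 16.5 in the FANCJ KO, 16.4, 14.9 and 16.7 in the double KO and 7.09, 7.96 and 9.37 in WT. The sum was 4.38-fold higher in the DHX36 KO than in WT (log2 2.13, SE 0.14, adjusted p = 6.54e-10). It was 1.88-fold higher in the FANCJ KO (log2 0.91, SE 0.16, adjusted p = 0.00299) and 1.97-fold higher in the double KO (log2 0.98, SE 0.15, adjusted p = 2.29e-05). All 5 Usp17l rows of the table together held 35.7 to 38.8 CPM in the DHX36 KO, 14.4 to 16.7 in the FANCJ KO, 15.5 to 17.45 in the double KO and 7.09 to 9.60 in WT, little more than the pair.

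Gm5662 was likewise highest in the DHX36 KO. It was measured at 39.6, 39.8 and 39.9 CPM in the DHX36 KO, 23.1, 22.5 and 20.6 in the FANCJ KO, 21.8, 22.4 and 17.6 in the double KO and 10.9, 15.4 and 12.9 in WT. The DHX36 KO stood above the rest, the FANCJ and double KOs overlapped, and both lay above WT. Its log2 fold change against WT was 1.60 in the DHX36 KO (SE 0.14, adjusted p = 3.54e-08), 0.75 in the FANCJ KO (SE 0.15, adjusted p = 0.00878) and 0.65 in the double KO (SE 0.14, adjusted p = 0.00116). Without WT library 1, the call in the FANCJ KO was lost (adjusted p = 0.0531). The related gene Gm8300, whose 3′ end is unique in 93.2% of windows, rose against WT by 1.58 in the DHX36 KO (adjusted p = 5.19e-07), 0.74 in the FANCJ KO (adjusted p = 0.0344) and 0.80 in the double KO (adjusted p = 0.000962).

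Tcstv3 and Zfp352, with few counts, were not ordered like Zscan4d. Tcstv3 was measured at 2.11, 4.42 and 3.79 CPM in the DHX36 KO, 4.51, 5.72 and 5.36 in the FANCJ KO, 2.30, 1.68 and 2.05 in the double KO and 2.44, 1.77 and 3.28 in WT. Every FANCJ KO library lay above every library of the other 3 genotypes. Against WT, however, its log2 fold changes of 0.47 in the DHX36 KO (adjusted p = 0.342), 1.08 in the FANCJ KO (adjusted p = 0.0999) and −0.27 in the double KO (adjusted p = 0.580) did not pass, and the difference between the DHX36 and FANCJ KOs did not either (−0.61, adjusted p = 0.111). Zfp352 was measured at 2.78, 1.74 and 2.77 CPM in the DHX36 KO, 1.55, 2.13 and 3.10 in the FANCJ KO, 1.29, 1.12 and 0.623 in the double KO and 1.33, 1.06 and 1.17 in WT. Both single KOs lay above WT in every library, but the log2 fold changes of 1.07 in the DHX36 KO (95% interval 0.18 to 1.95, adjusted p = 0.0734) and 0.88 in the FANCJ KO (−0.06 to 1.81, adjusted p = 0.370) did not pass, nor did −0.20 in the double KO (adjusted p = 0.778). Tcstv1 had 5, 3 and 2 counts in the DHX36 KO, 2, 2 and 2 in the FANCJ KO, 1, 4 and 2 in the double KO and 3, 1 and 1 in WT, so a change was not detectable at this depth.

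**Figure D3:**
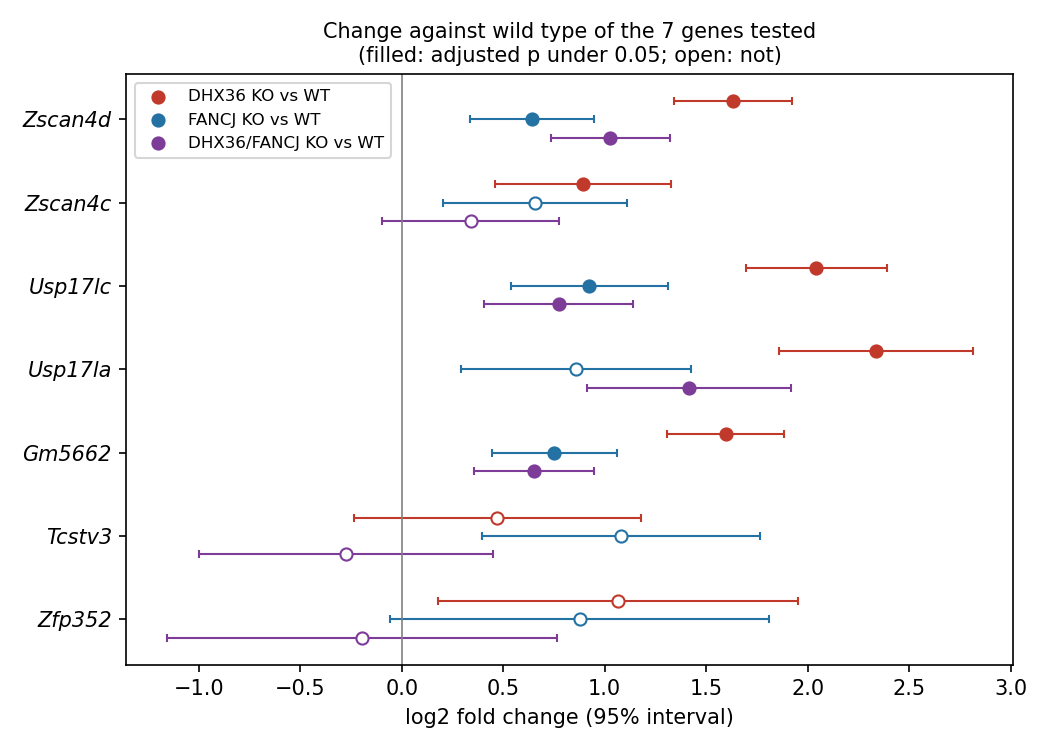
Log2 fold change against WT with its 95% interval for the 7 genes tested, in the DHX36 KO, the FANCJ KO and the double KO; filled points have an adjusted p under 0.05 and open points do not. For Zscan4d, Usp17lc, Usp17la and Gm5662 the DHX36 KO lies between 1.60 and 2.34 and the other genotypes between 0.64 and 1.41.

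The effect of FANCJ loss on these genes differed between cells without and with DHX36. In the double KO against the DHX36 KO, 6 of the 7 tested genes fell and none rose, where 8.28% of all genes tested rose and 11.4% fell. The largest of these falls were those of Usp17lc (log2 fold change −1.27, SE 0.13, adjusted p = 5.98e-07) and Zfp352 (−1.26, SE 0.36, adjusted p = 0.0153). Gm5662 fell by 0.94 on the log2 scale (adjusted p = 5.44e-06), Usp17la by 0.92 (adjusted p = 0.000329), Zscan4d by 0.60 (adjusted p = 0.000995) and Zscan4c by 0.55 (adjusted p = 0.0283). Tcstv3 had −0.75 and did not pass (adjusted p = 0.0792), although it passed without DHX36 KO library 1 (0.0233). The call of Zscan4c was lost when any 1 of the 6 libraries compared was left out (adjusted p from 0.0506 to 0.0951) and at equal depth (0.323). That of Zfp352 was lost without DHX36 KO library 1 or 3 or double KO library 3 (0.0634, 0.0738 and 0.0726). Zfp352 passed the expression filter through the DHX36 and FANCJ KOs, where it was higher, at 11 to 30 and 12 to 16 counts per library. The double KO libraries had 7 to 19 counts and those of WT 5 to 6, so its fall is not independent of the filter. The family sums fell by 0.59 for Zscan4 (SE 0.10, adjusted p = 0.000263) and by 1.15 for Usp17l (SE 0.11, adjusted p = 2.51e-07).

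In cells with DHX36, that is, the FANCJ KO against WT, all 7 tested genes had positive log2 fold changes, from 0.64 to 1.08, of which Zscan4d, Usp17lc and Gm5662 passed as given above. The interaction, the effect of FANCJ loss in the absence of DHX36 minus that in its presence, was negative for all 7 tested genes and passed for each, where 6.06% of all genes tested were called in that direction and 2.73% in the other. As the genes were chosen with earlier results of these data known, the contrast with all genes is a description and not independent support. The interaction was −2.19 for Usp17lc (SE 0.23, adjusted p = 1.44e-06), −1.78 for Usp17la (adjusted p = 0.000794), −1.70 for Gm5662 (adjusted p = 3.96e-06), −1.25 for Zscan4d (adjusted p = 0.000176) and −1.21 for Zscan4c (adjusted p = 0.00712). For the less abundant genes it was −2.14 for Zfp352 (SE 0.57, adjusted p = 0.0204) and −1.83 for Tcstv3 (SE 0.44, adjusted p = 0.0103). The family sums gave −1.24 for Zscan4 (SE 0.16, adjusted p = 2.50e-05) and −2.06 for Usp17l (SE 0.19, adjusted p = 3.73e-07). Seen from the other side, the level with both helicases absent was below what the sum of both single effects on the log2 scale would give. At equal depth, 6 of the genes were testable and 5 passed the interaction, with Zscan4c at an adjusted p of 0.0596. The call of Zfp352 was lost without DHX36 KO library 3, FANCJ KO library 3 or WT library 2 (0.0548, 0.0609 and 0.0559). Its interaction is likewise not independent of the expression filter, which it passed through the single KOs.

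**Figure D4:**
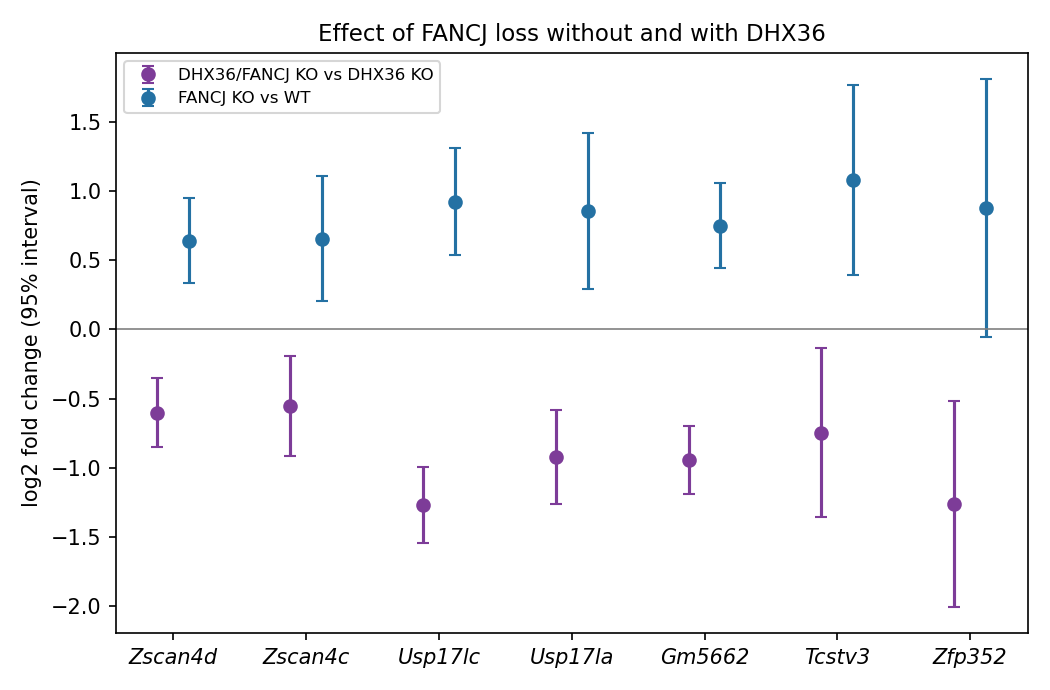
Log2 fold change with its 95% interval on FANCJ loss, in cells without DHX36 (double KO against DHX36 KO) and in cells with DHX36 (FANCJ KO against WT), for the 7 genes tested. The estimates without DHX36 lie between −1.27 and −0.55 and those with DHX36 between 0.64 and 1.08, and these contrasts share no library.

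The double KO was also set against the FANCJ KO, which differs from it in DHX36. Of the 7 tested genes, 2 rose in the double KO and 2 fell, while 18.3% of all genes tested rose and 18.5% fell. Zscan4d (0.39, adjusted p = 0.0217) and Usp17la (0.56, adjusted p = 0.0316) rose, and Tcstv3 (−1.36, adjusted p = 0.000792) and Zfp352 (−1.07, adjusted p = 0.0319) fell. The limit of the expression filter given above for Zfp352 holds here too. Usp17lc (−0.15, 95% interval −0.46 to 0.16) and Gm5662 (−0.10, −0.36 to 0.16) did not pass. The Zscan4 sum had 0.24 (adjusted p = 0.0849) over the member copies and −0.028 (adjusted p = 0.836) over all 8 rows. Without FANCJ KO library 3, only Tcstv3 was called. The call of Zscan4d was also lost without double KO library 1, that of Zfp352 without FANCJ KO library 2 or double KO library 2 or 3, and that of Usp17la under 8 of the 18 alternatives. Between the single KOs, Usp17la, Usp17lc, Zscan4d and Gm5662 were higher in the DHX36 KO than in the FANCJ KO, by log2 fold changes of 1.48, 1.12, 0.99 and 0.84 (adjusted p = 3.99e-06, 3.31e-06, 3.97e-06 and 1.90e-05), where 15.4% of all genes tested were higher and 14.8% lower.

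Of 45 further genes of the 2-cell-like programme, 40 were in the table, 35 had a count and 17 were tested. In the DHX36 KO against WT, 7 rose and 1 fell, with a median log2 fold change of 0.66. In the FANCJ KO 4 rose and 1 fell (median 0.60), and in the double KO 2 rose and 1 fell (median 0.10). The shares of all genes tested that rose in these comparisons were 12.8%, 1.45% and 16.6%, and those that fell were 11.6%, 0.619% and 17.3%. The counts in the double KO do not exceed these shares and are no result about these genes. In the double KO against the DHX36 KO, 1 rose and 8 fell (median −0.60), where 8.28% of all genes rose and 11.4% fell. A negative interaction passed for 7 of the 17, and for 6.06% of all genes tested. Their summed level was 157.2 to 161.8 CPM in the DHX36 KO, 125.9 to 133.3 in the FANCJ KO, 101.9 to 111.5 in the double KO and 88.0 to 92.3 in WT, without overlap between genotypes.

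Gm8994 was measured at 11.6 to 12.1 CPM in the DHX36 KO, 5.93 to 9.49 in the FANCJ KO, 3.92 to 5.61 in the double KO and 3.99 to 6.09 in WT. It rose in the DHX36 KO against WT (log2 fold change 1.33, SE 0.22, adjusted p = 0.000133) and had a value near 0 in the double KO (−0.0049, SE 0.24, adjusted p = 0.990). Gm13119 and BC080695, both of the PRAME-like gene family, rose in the FANCJ KO (1.57, adjusted p = 0.0347, and 1.25, adjusted p = 0.0321) and did not pass in the DHX36 KO (0.85, adjusted p = 0.137, and 0.42, adjusted p = 0.371). Usp26, a deubiquitinase gene of the X chromosome, fell in the FANCJ KO (−1.85, adjusted p = 0.0499). AF067061 fell in the double KO (−1.45, adjusted p = 0.0406). Counts per library were few, at 3 to 4 for Usp26 in the FANCJ KO and 3 to 7 for AF067061 in the double KO. Gm13119 had 5 to 9 in WT. These 3 genes were higher in other genotypes, through which they passed the expression filter. Their calls are therefore not independent of the filter.

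Among activators of the state, Dux did not pass in any comparison with WT, while Dppa2 and Dppa3 changed. Duxf3, the row that carries the mouse Dux gene, was measured at 1.45, 0.632 and 1.02 CPM in the DHX36 KO, 2.19, 1.86 and 1.86 in the FANCJ KO, 0.541, 0.877 and 0.356 in the double KO and 1.33, 0.530 and 1.87 in WT. Its log2 fold changes against WT of −0.16 in the DHX36 KO (adjusted p = 0.854), 0.73 in the FANCJ KO (adjusted p = 0.523) and −0.98 in the double KO (adjusted p = 0.167) did not pass, at 3 to 17 counts per library. Among the KOs, every FANCJ KO library lay above every DHX36 KO and double KO library for Duxf3, as a description at these few counts. Dppa2, an upstream regulator of Dux, was measured at 679.5, 669.3 and 684.2 CPM in the DHX36 KO, 422.8, 457.0 and 437.2 in the FANCJ KO, 758.4, 760.7 and 716.5 in the double KO and 417.4, 442.8 and 481.8 in WT. It rose in the DHX36 KO (0.60, SE 0.08, adjusted p = 5.10e-06) and in the double KO (0.74, SE 0.08, adjusted p = 1.52e-07), and did not pass in the FANCJ KO (−0.027, adjusted p = 0.917). Dppa4, the other regulator of Dux named above, did not pass in the DHX36 KO (0.16, adjusted p = 0.173) or the FANCJ KO (−0.023, adjusted p = 0.937). Its rise in the double KO was small (0.23, adjusted p = 0.0345). Every double KO library lay above every DHX36 KO library for Dppa2, with a difference that did not pass (0.14, adjusted p = 0.217), where Zscan4d fell. Dppa3, a maternal factor that protects methylation marks, rose in the DHX36 KO (1.68, adjusted p = 6.52e-09) and the double KO (1.01, adjusted p = 3.22e-06) and fell in the FANCJ KO (−1.53, adjusted p = 9.08e-06). Of the 9 activators tested, 4 rose and none fell in the DHX36 KO, none rose and 1 fell in the FANCJ KO, and 6 rose and 1 fell in the double KO. The shares of all genes that rose were 12.8%, 1.45% and 16.6%, and those that fell were 11.6%, 0.619% and 17.3%. Gata2 and Tbx3 were among those that rose in the DHX36 KO (1.30 and 0.51) and the double KO (0.99 and 1.31). Nelfa fell in the double KO (−0.30).

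Of 30 repressors of the state, 3 rose and 3 fell in the DHX36 KO against WT, none rose and 1 fell in the FANCJ KO, and 5 rose and 4 fell in the double KO. Over all genes tested, 12.8% rose and 11.6% fell in the DHX36 KO and 16.6% rose and 17.3% fell in the double KO, so these counts lie near the share of all genes and are no result about the repressors. In the FANCJ KO 1.45% of all genes rose and 0.619% fell, and the single repressor that fell there is no result either. Their median log2 fold change was −0.08 in the DHX36 KO, −0.05 in the FANCJ KO and 0.014 in the double KO. The changes were small: in the DHX36 KO Atrx, a chromatin remodeller, fell by 0.44 on the log2 scale (adjusted p = 0.000816) and Trim28 by 0.25 (adjusted p = 0.0121). They are 2 of the 3 that fell there, beside 3 that rose. In the double KO Rif1, a factor of replication timing and telomeres, rose by 0.63 (adjusted p = 3.34e-05). Lin28a (−0.50, adjusted p = 0.000285), Cbx3 (−0.38, adjusted p = 0.00103) and Pias4 (−0.31, adjusted p = 0.0113) fell there. Of 14 telomere genes tested, 2 rose in the DHX36 KO, none in the FANCJ KO and 5 in the double KO, and none fell. The count in the DHX36 KO is near the 12.8% of all genes that rose there. In the double KO 5 of 14 is above the 16.6% of all genes that rose, a difference that was not tested. The shares of all genes that fell were 11.6% in the DHX36 KO, 0.619% in the FANCJ KO and 17.3% in the double KO.

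Markers of other cell types also differed between the genotypes. Of the 15 primitive endoderm markers 14 were tested, of which 4 rose and 3 fell in the DHX36 KO against WT, 9 rose and none fell in the FANCJ KO and 6 rose and 3 fell in the double KO, where 12.8%, 1.45% and 16.6% of all genes rose. The shares of all genes that fell were 11.6%, 0.619% and 17.3%. Sox17, an endoderm transcription factor gene, rose by 2.10 in the DHX36 KO (adjusted p = 0.000145), 2.42 in the FANCJ KO (adjusted p = 0.000418) and 1.96 in the double KO (adjusted p = 0.000156), with an interaction of −2.55 (adjusted p = 0.000512). Srgn, the serglycin gene, had 2.09, 3.41 and 3.06 in these comparisons and an interaction of −2.44, all of which passed. The collagen genes Col4a1 and Col4a2 fell in the DHX36 KO (−0.87 and −0.93) and the double KO (−0.85 and −1.12) and rose in the FANCJ KO (0.89 and 0.84). The 15 markers summed to 506.1 to 529.3 CPM in the DHX36 KO, 726.4 to 755.7 in the FANCJ KO, 461 to 522.7 in the double KO and 486.7 to 608.9 in WT.

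Of the 11 trophoblast markers 10 were tested, of which 3 rose and 4 fell in the DHX36 KO, 2 rose and none fell in the FANCJ KO and 5 rose and 4 fell in the double KO. The shares of all genes that rose were 12.8%, 1.45% and 16.6%, and those that fell were 11.6%, 0.619% and 17.3%. Hand1, a transcription factor gene of trophoblast giant cells and extraembryonic mesoderm, was highest in the DHX36 KO, at 97.6, 73.4 and 90.1 CPM, against 60.3, 66.5 and 43.5 in the FANCJ KO, 52.5, 49.0 and 59.0 in the double KO and 31.4, 33.8 and 45.2 in WT. It rose against WT in the DHX36 KO (1.25, adjusted p = 2.44e-06), the FANCJ KO (0.65, adjusted p = 0.0310) and the double KO (0.54, adjusted p = 0.00783), fell in the double KO against the DHX36 KO (−0.71, adjusted p = 0.000702) and had an interaction of −1.35 (adjusted p = 0.000172). Plet1, a marker gene of trophoblast progenitors, rose in the DHX36 KO (1.11, adjusted p = 0.00102) and the double KO (1.01, adjusted p = 0.00124). The keratin genes Krt7, Krt8 and Krt18 fell in the DHX36 KO (−1.79, −1.07 and −0.96) and the double KO (−1.79, −1.90 and −1.77). Cdx2 fell in the double KO (−2.24, adjusted p = 2.21e-05) and did not pass in the DHX36 KO (0.32, adjusted p = 0.432). The 11 markers summed to 571.4 to 638.9 CPM in the DHX36 KO, 1109 to 1165 in the FANCJ KO, 415.2 to 453.5 in the double KO and 901.8 to 1062 in WT. Of the 12 fibroblast markers 8 were tested, of which 2 rose and 3 fell in the DHX36 KO, 2 rose and none fell in the FANCJ KO and 1 rose and 6 fell in the double KO. The shares of all genes to set beside these counts are those given for the trophoblast markers. Thy1, a surface glycoprotein gene, rose in the DHX36 KO (1.91, adjusted p = 4.86e-06) and the double KO (1.61, adjusted p = 2.04e-05). Most called fibroblast markers went the other way in these 2 genotypes. Acta2, Col1a1 and Tagln fell in the DHX36 KO (−1.13, −0.72 and −1.31) and the double KO (−2.98, −2.59 and −2.32). The 12 markers summed to 605.8 to 639.6 CPM in the DHX36 KO, 1219 to 1274 in the FANCJ KO, 322.3 to 334.6 in the double KO and 887.8 to 1075 in WT. No marker of these 3 lists was at 0 in all libraries. None of the 3 sums was highest in the DHX36 KO, although single markers such as Hand1 were. The part of these markers in the results was not tested.

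Across the 12 libraries, the 2-cell-like genes differed in how closely they followed the Zscan4 sum. Pearson's r of log2 CPM with that sum, given as a description over libraries that share genotypes, was 0.964 for Usp17la, 0.914 for Usp17lc and 0.909 for Gm5662, which ranked 2, 20 and 23 among 12765 genes. It was 0.421 for Zfp352 and 0.1485 for Tcstv3. Zscan4d and Zscan4c, which are part of the sum, had 0.990 and 0.725. The 5 most alike genes outside these families were Car4, a carbonic anhydrase gene (0.954), C2cd2l (0.953), Spred3, an inhibitor of ERK signalling (0.952), Coch, the cochlin gene (0.949), and Pou4f3, a POU transcription factor gene of inner ear hair cells (0.9425). Car4 was measured at 48.8, 51.0 and 46.8 CPM in the DHX36 KO, 36.9, 31.8 and 32.0 in the FANCJ KO, 43.2, 40.4 and 40.4 in the double KO and 29.9, 22.45 and 27.6 in WT.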

How the data were processed

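The deposited table holds whole-number counts per gene and library that the authors had not normalised. Per the submitters' processing notes, the tools include BWA and the builds GRCm38 and hg38, with no roles or versions. Whether a count is a read or a collapsed molecule, and how reads with several alignments were treated, is not given in the sources used here. Spike-in rows (92) were left out. Of 32285 gene identifiers, 32235 matched GENCODE M21.

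The test was the quasi-likelihood F test of edgeR 4.0.16 (R 4.3.3) on the counts, with trimmed-mean normalisation, the default expression filter by genotype (12765 genes) and 1 model of genotype over all 12 libraries. Tests were two-sided, adjusted by Benjamini and Hochberg over all genes tested, with a threshold of 0.05. A standard error (SE) is the log2 fold change over the square root of its F value. CPM are counts scaled to a common total with the normalised library sizes. A family sum replaced its member rows in a further fit. Scripts were tested on simulated data. Alternatives were DESeq2 1.42.0, other size factors, no filter, equal depth (every library thinned to 4284785 counts), only the genotypes compared, a replicate block, all named copies and leaving out each library.

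The members and all lists were chosen with earlier results of these data known. Named were all members, up to 6 called genes per list by size of change, and the 5 genes most correlated with the Zscan4 sum; other genes and rows were named after their values were seen. The genes of the other cell types are given as counts and sums, with a few single genes. Promoters are RefSeq windows of GRCm38.p6, a C57BL/6J assembly, while the cells are 129/Ola, and copy numbers in that strain were not examined.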

Additional observations from a re-analysis of the deposited data

Results flagged for a closer look

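For each of the 7 genes tested and for both family sums, the effect of FANCJ loss differed between cells without and with DHX36, by the interaction in edgeR's quasi-likelihood model. On the log2 scale the difference was −2.19 for Usp17lc, −2.14 for Zfp352, −1.83 for Tcstv3, −1.78 for Usp17la, −1.70 for Gm5662, −1.25 for Zscan4d and −1.21 for Zscan4c. It was −1.24 for the Zscan4 sum and −2.06 for the Usp17l sum. The genes were chosen with earlier results of these data known, and Zfp352 passed the expression filter through the single KOs, where it was higher. Groups of 3 libraries were not searched for single outlying values.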

How the results depend on the processing

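Of the alternative values, 120 of 125 counts of called members, 260 of 264 family sums and 828 of 866 single-gene values kept their direction and their side of the threshold, or, for counts, stayed within 1.5 times. Leaving out 1 library gave 5 called members in each case for the DHX36 KO against WT, 4 for the double KO against WT, 4 to 6 for the double KO against the DHX36 KO, 4 for the DHX36 against the FANCJ KO and 6 to 7 for the interaction. For the FANCJ KO against WT it gave 1 to 3, with 1 without WT library 1, and the Zscan4 sum ranged from 0.54 to 0.74. For the double KO against the FANCJ KO it gave 1 to 4, with 1 without FANCJ KO library 3, and 2 without double KO library 1 or 3. There the Zscan4 sum ranged from 0.15 to 0.34, passing only without FANCJ KO library 2 (adjusted p = 0.0316). The Usp17l sum ranged from −0.0047, without FANCJ KO library 1, to 0.12. At equal depth 2 members were called in that comparison, and with all named copies its Zscan4 sum was −0.028. The sign of Zfp352 turned for the double KO against WT without double KO library 3 (0.034, in a range from −0.42) and for the DHX36 against the FANCJ KO without FANCJ KO library 1 (−0.050, in a range up to 0.43). The cause of these changes was not tested, apart from the fewer samples or counts. Same-numbered libraries did not deviate together (18 pairs, correlations from −0.0563 to 0.0462), so the numbers do not pair them. With the replicate block, 5 members were called in the DHX36 KO against WT, 3 in the FANCJ KO and 4 in the double KO, and no other count of called members changed. Zscan4f and Tcstv1, at 0 to 5 counts per library, had too few counts for a comparison. The transcript end of Zscan4f had no unique windows, while that of Tcstv1 was unique in 87.3%. The part of shared reads in the low counts of Zscan4f was not tested, so its limit cannot be given to depth alone.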
